A study of Mus musculus with 11 samples.

Results

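The 9 genes examined here mark mature B cells. They are *Cd79a*, *Cd79b*, *Ms4a1*, *Cr2*, *Fcer2a*, *Blk*, *Pax5*, *Spib* and *Bcl11a*, taken by name from the 19058 genes of the count table. All 9 were found there and all 9 passed the filter on low counts, which kept genes reaching 30 counts when the WT mice were added up and left 13937 genes for testing.

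Bulk RNA was sequenced from lacrimal glands of male NOD mice, a strain in which males develop autoimmune inflammation of this gland. There were 3 WT mice, 5 *Tlr7* KO mice and 3 *Ifnar1* KO mice, each with 1 library, and the group names and replicate numbers used here are those of the sample titles. The WT mice carried both genes intact. The *Tlr7* KO mice carried a CRISPR/Cas9-made deletion of 2 bases in *Tlr7*, which encodes an endosomal receptor for single-stranded RNA. The *Ifnar1* KO mice, homozygous for the em16 allele, lacked a chain of the type I interferon receptor. A further *Ifnar1* KO sample had been dropped by the study because it grouped with WT and its gland was as inflamed as WT, and it was not analysed here, so the *Ifnar1* KO group was selected in part by its outcome. WT and *Tlr7* KO mice were 20 to 22 weeks old, and the age of the *Ifnar1* KO mice was not given in the sources used here. Histology was done on the opposite gland of the WT and *Tlr7* KO mice. Both knockouts affected the whole animal. Nothing in the labels ties a replicate number to a litter or a day. No mouse is shared between groups, but the WT mice serve as the reference for both knockouts.

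On a B cell, the antigen receptor consists of a membrane immunoglobulin that binds antigen and a CD79A/CD79B pair that carries the signal inward. Src family kinases such as BLK phosphorylate the tails of that pair, and the co-receptor around CD21 lowers the threshold for activation. PAX5 holds cells in the B lineage, and most of these genes are shut down when a B cell becomes a plasma cell. Infiltrates of inflamed lacrimal and salivary glands commonly contain B cells.

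The libraries held 20512315 to 28814250 counts assigned to genes. Levels are given as CPM, counts relative to library size, scaled with TMM factors, and 3 counts, the lowest level treated as measurable, corresponded to 0.082 to 0.157 CPM. The 10 most abundant genes took 54.0% to 65.9% of each library. Gland epithelial markers summed to 984 to 1221 CPM in WT mice, 1370 to 1445 CPM in *Tlr7* KO mice and 1389 to 1601 CPM in *Ifnar1* KO mice, so the labelled tissue was present throughout. *Tlr7* RNA was at 2.92, 1.53 and 2.71 CPM in WT mice and at 0.496 to 0.949 CPM in *Tlr7* KO mice (log2 fold change -1.62 ± 0.28 SE, adjusted p = 0.00364, edgeR). It was also lower in *Ifnar1* KO mice (-2.10 ± 0.45, adjusted p = 0.026). *Ifnar1* RNA was lower in *Ifnar1* KO mice (-0.61 ± 0.17, adjusted p = 0.0485) and in *Tlr7* KO mice (-0.51 ± 0.14, adjusted p = 0.022). A small edit need not remove a transcript, so these levels do not check the labels.

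In GRCm38, *Cd79a* (ENSMUSG00000003379) lies at chr7:24897381-24902197 on the plus strand and *Cd79b* (ENSMUSG00000040592) at chr11:106311341-106314762 on the minus strand. The surface genes are *Ms4a1* (ENSMUSG00000024673) at chr19:11249675-11266241, *Cr2* (ENSMUSG00000026616) at chr1:195136811-195176716 and *Fcer2a* (ENSMUSG00000005540) at chr8:3681737-3694175, all on the minus strand. *Blk* (ENSMUSG00000014453) is at chr14:63372836-63417037 on the minus strand. The transcription factor genes are *Pax5* (ENSMUSG00000014030) at chr4:44524757-44710487 on the minus strand, *Spib* (ENSMUSG00000008193) at chr7:44525993-44532071 on the minus strand and *Bcl11a* (ENSMUSG00000000861) at chr11:24078056-24174123 on the plus strand. All 9 are protein-coding, and the values count reads over whole genes, so no exon or isoform is singled out.

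The promoters of the 9 genes were searched for 4 short motifs on both strands. The windows ran from 250 bases before to 50 bases after each RefSeq start in GRCm38.p6, and 6 of the 9 genes had a window (8 windows in all). *Cd79b*, *Ms4a1* and *Blk* had no entry. The letters searched were ATGCAAAT, the octamer, which is in 1.74% of all 32851 windows, CCCNNGGG, the core of the EBF1 site (13.7%), GAGGAA, an ETS site of the PU.1 and Spi-B type (28.3%), and CAGGTG, an E-box (20.2%). The octamer was in 0 of the 8 windows, CCCNNGGG in 1, GAGGAA in 1 and CAGGTG in 3. These matches are letters in a window and were not tested as sites. Stretches of 3 of the windows with a match are shown, for a receptor chain, a surface gene and a transcription factor, 5′ to 3′ on the gene's strand, with the matches in capitals.

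Cd79a, chr7:24897297-24897376, plus strand, with CAGGTG and the reverse complement of GAGGAA: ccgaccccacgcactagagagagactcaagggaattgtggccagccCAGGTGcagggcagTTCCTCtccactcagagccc

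Cr2, chr1:195176780-195176839, minus strand, with the reverse complement of CAGGTG: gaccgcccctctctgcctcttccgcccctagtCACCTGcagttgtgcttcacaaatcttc

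Spib, chr7:44532112-44532171, minus strand, with 2 overlapping copies of CCCNNGGG: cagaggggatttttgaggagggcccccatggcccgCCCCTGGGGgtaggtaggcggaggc

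Both knockouts had far less RNA of all 9 genes than WT glands. In *Tlr7* KO mice the 9 genes were 5.62-fold to 10.4-fold lower, and in *Ifnar1* KO mice 9.03-fold to 25.5-fold lower. In neither comparison did the knockout mice overlap WT for any of the 9. All comparisons with *Ifnar1* KO mice carry the selection of that group described above. In bulk tissue, fewer B cells and less RNA per B cell cannot be told apart.

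**Figure D1:**
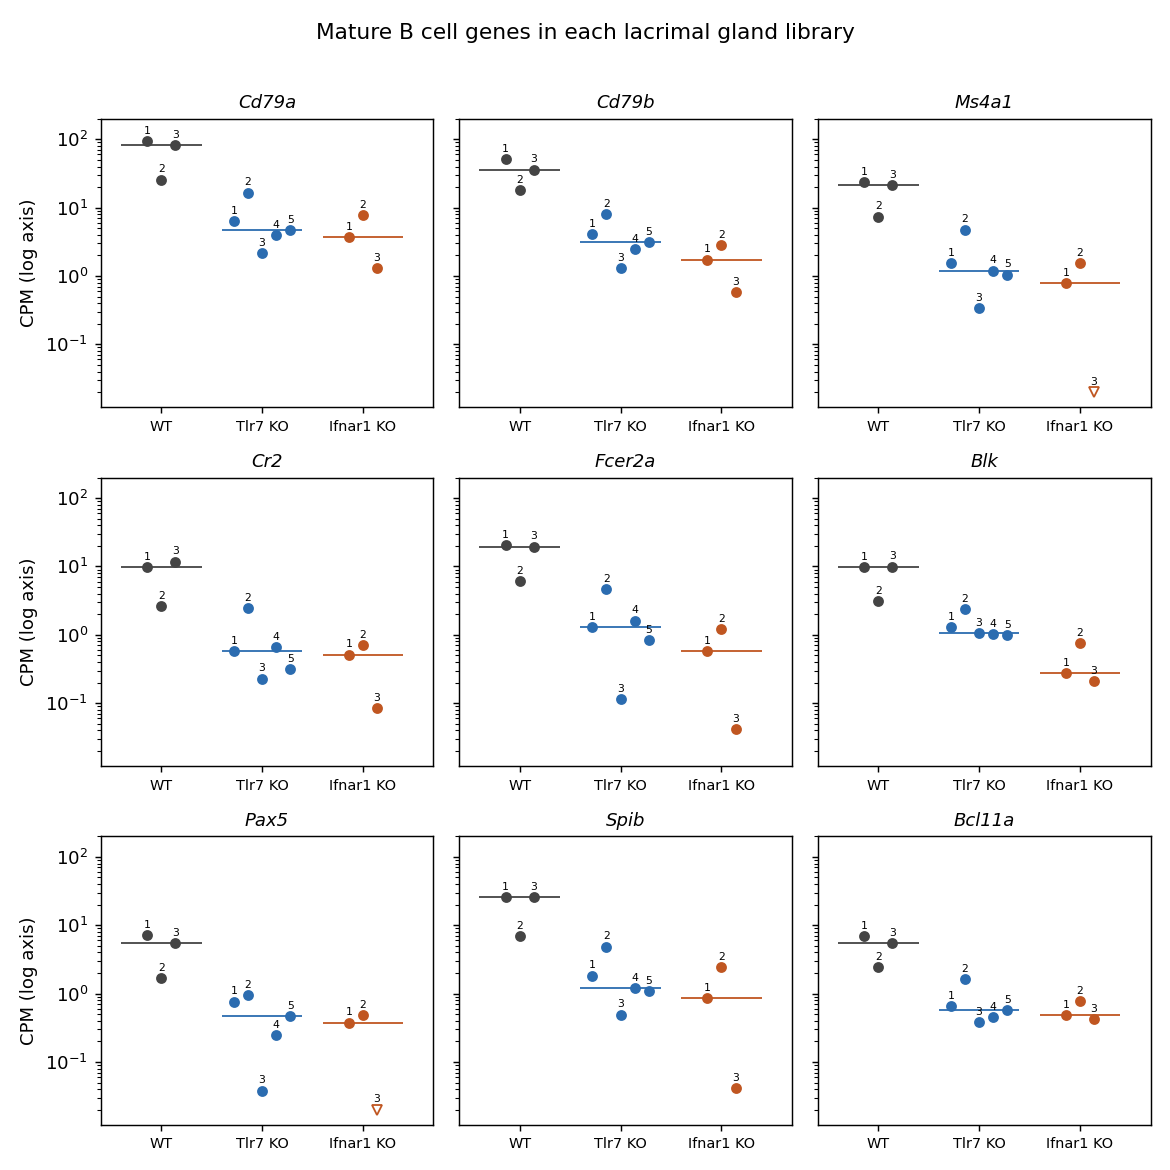
Level of each mature B cell gene in each library, in CPM on a log axis, with the replicate number above each point and a line at the group median. Open triangles mark 0 counts, drawn at the bottom of the axis. WT 2 is the lowest WT mouse in every panel, and all WT mice lie above all knockout mice.

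*Cd79a*, which encodes the Igα signalling chain of the receptor, was at 93.8, 25.7 and 82.5 CPM in WT mice 1 to 3. In *Tlr7* KO mice 1 to 5 it was at 6.32, 16.6, 2.16, 3.92 and 4.67 CPM, and in *Ifnar1* KO mice 1 to 3 at 3.69, 7.70 and 1.30 CPM. The lowest WT mouse was 1.54 times the highest *Tlr7* KO mouse and 3.34 times the highest *Ifnar1* KO mouse. *Cd79a* was lower by edgeR's quasi-likelihood test in *Tlr7* KO (log2 fold change -3.33 ± 0.60 SE, adjusted p = 0.00434) and in *Ifnar1* KO mice (-4.02 ± 0.70, adjusted p = 0.0225). *Cd79b*, for the Igβ chain that pairs with it, was at 51.5, 18.1 and 36.1 CPM in WT mice. It was at 4.10, 8.02, 1.29, 2.48 and 3.15 CPM in *Tlr7* KO mice and at 1.74, 2.80 and 0.585 CPM in *Ifnar1* KO mice. WT 2 was 2.25 times the highest *Tlr7* KO mouse for *Cd79b*, the widest such gap of the 9 genes. The change was -3.22 ± 0.49 (adjusted p = 0.00233) in *Tlr7* KO and -4.38 ± 0.57 (adjusted p = 0.0207) in *Ifnar1* KO mice.

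The 3 surface genes were *Ms4a1*, which encodes CD20, *Cr2*, which encodes the complement receptor CD21, and *Fcer2a*, which encodes the low-affinity IgE receptor CD23. *Ms4a1* was at 23.5, 7.37 and 21.4 CPM in WT mice, at 1.53, 4.77, 0.342, 1.20 and 1.05 CPM in *Tlr7* KO mice and at 0.785, 1.53 and 0 CPM in *Ifnar1* KO mice. The 0 was *Ifnar1* KO 3, in which 0 counts allow up to 0.125 CPM. Its log2 fold change was -3.30 ± 0.62 (adjusted p = 0.00519) in *Tlr7* KO and -4.50 ± 0.83 (adjusted p = 0.023) in *Ifnar1* KO mice. *Cr2* was at 9.84, 2.6 and 11.8 CPM in WT mice, at 0.574, 2.43, 0.228, 0.661 and 0.315 CPM in *Tlr7* KO mice and at 0.512, 0.71 and 0.0836 CPM in *Ifnar1* KO mice. The 0.0836 CPM of *Ifnar1* KO 3 was 2 counts, under the 3 counts treated as measurable. WT 2 and *Tlr7* KO 2 were nearly level for *Cr2*, at a ratio of 1.07, the narrowest gap of the 9 genes. The change of *Cr2* was -3.27 ± 0.67 (adjusted p = 0.00727) and -4.22 ± 0.74 (adjusted p = 0.0225) in *Tlr7* KO and *Ifnar1* KO mice. *Fcer2a* was at 20.7, 6.09 and 19.5 CPM in WT mice, at 1.30, 4.68, 0.114, 1.61 and 0.839 CPM in *Tlr7* KO mice and at 0.581, 1.20 and 0.0418 CPM in *Ifnar1* KO mice. The 0.0418 CPM of *Ifnar1* KO 3 was 1 count, also under that level. *Fcer2a* spread most within the *Tlr7* KO group, with *Tlr7* KO 2 at 41.1 times *Tlr7* KO 3, where it rested on 3 counts. The change was -3.18 ± 0.70 (adjusted p = 0.00942) in *Tlr7* KO and -4.67 ± 0.77 (adjusted p = 0.0216) in *Ifnar1* KO mice.

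*Blk*, the Src family kinase of B cells, was at 9.67, 3.11 and 9.98 CPM in WT mice. It was at 1.30, 2.38, 1.06, 1.03 and 0.996 CPM in *Tlr7* KO mice and at 0.273, 0.748 and 0.209 CPM in *Ifnar1* KO mice. The *Tlr7* KO mice were closest together for this gene, with *Tlr7* KO 2 at 2.24 times *Tlr7* KO 3 against 4.34 to 41.1 times for the other 8 genes, and all 5 lay above all 3 *Ifnar1* KO mice. The change was -2.49 ± 0.40 (adjusted p = 0.00293) in *Tlr7* KO and -4.23 ± 0.62 (adjusted p = 0.0207) in *Ifnar1* KO mice.

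Of the transcription factor genes, *Pax5*, which fixes B lineage identity, was at 7.16, 1.70 and 5.52 CPM in WT mice. It was at 0.766, 0.954, 0.038, 0.248 and 0.472 CPM in *Tlr7* KO mice and at 0.376, 0.486 and 0 CPM in *Ifnar1* KO mice, with *Tlr7* KO 3 at 1 count and *Ifnar1* KO 3 at 0 counts. *Pax5* was therefore at the limit of these libraries in the lowest mouse of each knockout. The change was -3.28 ± 0.64 (adjusted p = 0.00567) in *Tlr7* KO and -4.05 ± 0.83 (adjusted p = 0.0249) in *Ifnar1* KO mice. *Spib*, which encodes the ETS factor Spi-B, was at 26.1, 6.90 and 25.6 CPM in WT mice, at 1.84, 4.85, 0.49, 1.20 and 1.10 CPM in *Tlr7* KO mice and at 0.854, 2.47 and 0.0418 CPM in *Ifnar1* KO mice. Its 0.0418 CPM in *Ifnar1* KO 3 was 1 count, under the 3 counts treated as measurable. In the *Tlr7* KO comparison the change of *Spib* was the largest of the 9, at -3.37 ± 0.62 (adjusted p = 0.00456), and in *Ifnar1* KO mice it was -4.14 ± 0.88 (adjusted p = 0.0256). *Bcl11a*, a zinc finger factor needed early in the B lineage, was at 6.99, 2.43 and 5.52 CPM in WT mice, at 0.651, 1.65, 0.38, 0.454 and 0.577 CPM in *Tlr7* KO mice and at 0.478, 0.785 and 0.418 CPM in *Ifnar1* KO mice. *Bcl11a* had the smallest change of the 9 in *Ifnar1* KO mice, at -3.17 ± 0.46 (adjusted p = 0.0207), and in *Tlr7* KO mice it was -2.75 ± 0.47 (adjusted p = 0.00364). *Ifnar1* KO 3, the library with the lowest level of the other 8 genes, still held 10 counts of it.

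Thus 9 of 9 genes were lower in *Tlr7* KO mice, where 17.4% of all genes tested were lower and 14.5% were lower with no overlap between groups. The median log2 fold change was -3.27 for the 9 genes and -0.04 for all genes. In *Ifnar1* KO mice 9 of 9 were lower as well, where 12.4% of all genes were lower and 21.2% were lower with no overlap, and the medians were -4.22 and -0.02. Leaving out any 1 of the 8 mice kept all 9 calls in the *Tlr7* KO comparison. The *Ifnar1* KO calls depended on which mice were in the fit. So did those of the T cell, leukocyte, macrophage and epithelial lists below, which also fell to 0 with some mice left out. The share of all genes called in those fits is not given here. Without WT 1, *Ifnar1* KO 1 or *Ifnar1* KO 3, 0 of 9 passed (adjusted p = 0.0563 to 0.0731, 0.0743 to 0.0966 and 0.0799 to 0.0813, edgeR), and without WT 3 *Cd79b* alone did, although all 9 log2 fold changes stayed between -5.56 and -2.85 whichever mouse was left out.

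**Figure D2:**
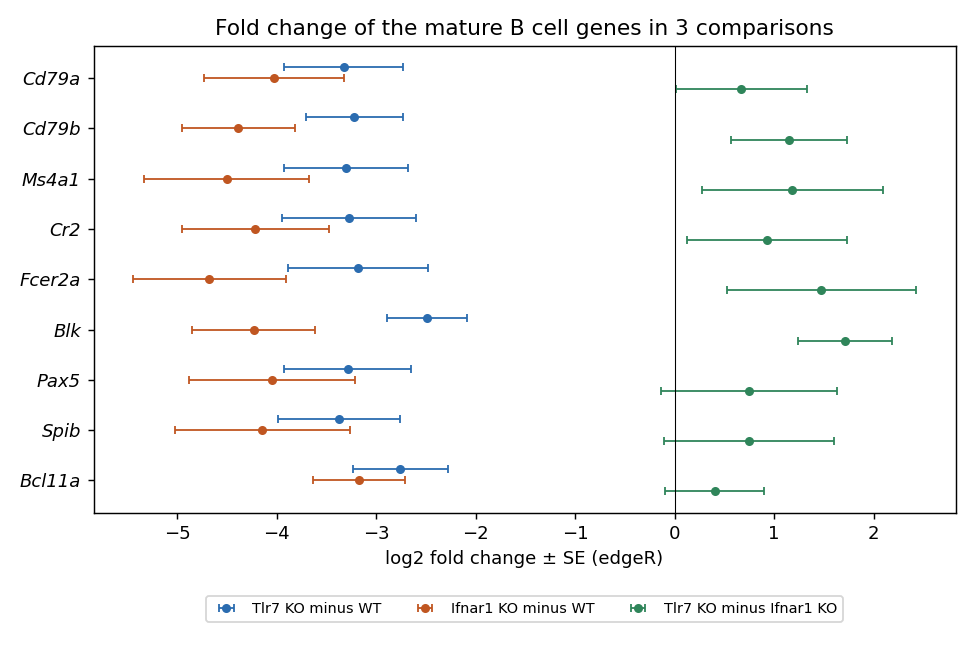
Log2 fold change of each mature B cell gene with its SE from edgeR, for *Tlr7* KO against WT, *Ifnar1* KO against WT, and *Tlr7* KO against *Ifnar1* KO. The first runs from -3.37 to -2.49, the second from -4.67 to -3.17 and the third from 0.40 to 1.71. The first and second share the WT mice.

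The knockouts were also compared with each other. All 9 genes had higher estimates in *Tlr7* KO than in *Ifnar1* KO mice, with log2 fold changes of 0.40 (*Bcl11a*) to 1.71 (*Blk*) and SE of 0.47 to 0.95, but 0 of 9 passed at an adjusted p under 0.05. Of all genes tested, 0.926% were higher and 0.868% lower in *Tlr7* KO mice. *Blk* came closest (1.71 ± 0.47, unadjusted p = 0.00441, adjusted p = 0.11, edgeR), and it alone of the 9 did not overlap, which held for 5.44% of all genes in that direction. It was the only one of the 9 with an unadjusted p under 0.05, which 2270 of the 13937 genes tested had. DESeq2 gave *Blk* an adjusted p of 0.0204 and called 1 of 9, and edgeR did so without *Ifnar1* KO 2 (adjusted p = 0.0189). The estimate for *Cd79a*, 0.67 ± 0.66, fell to 0.01 without *Tlr7* KO 2. Without that mouse *Cr2* fell to 0.02 and *Spib* to 0.04, and *Bcl11a* changed sign to -0.12. Over the 9 genes the estimates then ran from -0.12 to 1.41, with a median of 0.37.

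The mice of each group kept a common order across the 9 genes. WT 2 was the lowest WT mouse for 9 of 9, *Tlr7* KO 2 the highest *Tlr7* KO mouse for 9 of 9, *Ifnar1* KO 2 the highest and *Ifnar1* KO 3 the lowest *Ifnar1* KO mouse for 9 of 9, and *Tlr7* KO 3 the lowest *Tlr7* KO mouse for 8 of 9. Summed over the 9 genes, WT mice were at 249, 73.9 and 218 CPM, *Tlr7* KO mice at 18.4, 46.4, 6.11, 12.8 and 13.2 CPM and *Ifnar1* KO mice at 9.29, 18.4 and 2.67 CPM. WT 2 and *Tlr7* KO 2 came closest, with WT 2 at 1.07 to 2.25 times *Tlr7* KO 2 for the single genes. Without WT 2, the log2 fold changes were -3.78 to -2.86 in *Tlr7* KO and -5.05 to -3.50 in *Ifnar1* KO mice, with 9 of 9 called in each. Without *Tlr7* KO 2 they were -4.17 to -2.79 in *Tlr7* KO mice, also with 9 of 9 called.

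Per kilobase of annotated exon, the receptor chains were the most abundant of the 9. In WT mice *Cd79a* averaged 46.2 ± 25.1 CPM per kb (SD, n = 3) and *Cd79b* 24.6 ± 11.7, followed by *Spib* at 6.81 ± 3.81, *Fcer2a* at 4.99 ± 2.62, *Ms4a1* at 2.81 ± 1.42 and *Blk* at 2.81 ± 1.44. *Cr2* was at 0.995 ± 0.597, *Pax5* at 0.542 ± 0.316 and *Bcl11a* at 0.378 ± 0.177 CPM per kb. Of the neighbours in this order, *Cd79b* and *Spib*, and *Blk* and *Cr2*, had means further apart than either SD between mice, and the others did not. Within single libraries some neighbours kept this order and others did not. *Cd79a* exceeded *Cd79b*, and *Cd79b* exceeded *Spib*, in 11 of 11 libraries. *Spib* exceeded *Fcer2a* in 10 of 11, *Fcer2a* exceeded *Ms4a1* in 10 of 11 and *Blk* exceeded *Cr2* in 11 of 11. *Cr2* exceeded *Pax5* in 9 of 11, among them 3 of 5 *Tlr7* KO libraries. *Ms4a1* and *Blk* did not keep an order, with *Ms4a1* higher in 2 of 3 WT, 0 of 5 *Tlr7* KO and 1 of 3 *Ifnar1* KO libraries, and *Pax5* exceeded *Bcl11a* in 3 of 3 WT, 2 of 5 *Tlr7* KO and 1 of 3 *Ifnar1* KO libraries.

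Ratios between the genes within a library do not depend on how libraries are scaled, and they show whether the 9 genes fell in proportion. Each was computed as the log2 ratio of CPM after adding 0.5 counts to both genes, and groups were compared by exact permutation of the mice, two-sided. The lowest p possible is 0.0179 for 3 mice against 5 and 0.1 for 3 against 3, so no ratio could pass in the *Ifnar1* KO comparison with WT. Among the 36 pairs of the 9 genes, 7 did not overlap between WT and *Tlr7* KO mice, 9 between WT and *Ifnar1* KO mice and 2 between the knockouts. Of these pairs, a share over all genes is given only for the ratios to *Cd79a*, below. None had an adjusted p under 0.05 over the 36 pairs, and the smallest were 0.367, 0.4 and 0.321. At an unadjusted p under 0.05 there were 1, 0 and 2 pairs.

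*Cd79b*, *Cr2*, *Spib* and *Pax5* overlapped WT in their ratio to *Cd79a* in both knockouts. *Cd79b* was at 54.9%, 70.3% and 43.8% of *Cd79a* in WT mice, at 65.0%, 48.2%, 60%, 63.4% and 67.6% in *Tlr7* KO mice and at 47.5%, 36.6% and 46.0% in *Ifnar1* KO mice. Over the 11 libraries *Cd79a* itself spanned 1.30 to 93.8 CPM, while this ratio stayed within 36.6% to 70.3%. Between the knockouts the ratio of *Cd79b* to *Cd79a* did not overlap, with *Tlr7* KO higher by 0.49 on the log2 scale (exact permutation p = 0.0179, adjusted p = 0.321). *Spib* was at 27.8%, 26.9% and 31.0% of *Cd79a* in WT mice, at 29.3%, 29.3%, 23.5%, 30.9% and 24.0% in *Tlr7* KO mice and at 23.5%, 32.2% and 4.76% in *Ifnar1* KO mice. The last, *Ifnar1* KO 3, rested on 1 count of *Spib* and 31 of *Cd79a*. *Cr2* averaged 11.5%, 11.4% and 10.2% of *Cd79a* in WT, *Tlr7* KO and *Ifnar1* KO mice (geometric means). *Pax5* was at 7.65%, 6.71% and 6.71% of *Cd79a* in WT mice, at 12.4%, 5.85%, 2.61%, 6.81% and 10.6% in *Tlr7* KO mice and at 10.6%, 6.54% and 1.59% in *Ifnar1* KO mice, so both knockouts spread to either side of WT. *Ms4a1* averaged 26.5%, 24.2% and 8.84%, and the *Ifnar1* KO mice, at 21.7%, 20.1% and 1.59%, lay below WT by 1.59 on the log2 scale (exact permutation p = 0.1, the smallest possible, adjusted p = 0.4). The last value is that of *Ifnar1* KO 3, with 0 counts, and without that mouse the difference was -0.35.

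The ratio to *Cd79a* lay above WT without overlap for *Blk* in *Tlr7* KO mice and for *Bcl11a* in both knockouts, though no adjusted p passed. *Blk* was at 10.3%, 12.2% and 12.1% of *Cd79a* in WT mice and at 20.8%, 14.4%, 49.6%, 26.7% and 21.8% in *Tlr7* KO mice, so that every *Tlr7* KO mouse lay above every WT mouse. The difference was 1.09 on the log2 scale (exact permutation p = 0.0536, adjusted p = 0.367). In *Ifnar1* KO mice *Blk* was at 7.83%, 9.93% and 17.5%, which overlapped WT. *Bcl11a* was at 7.47%, 9.53% and 6.71% of *Cd79a* in WT mice, at 10.6%, 10%, 18.3%, 12% and 12.8% in *Tlr7* KO mice and at 13.4%, 10.4% and 33.3% in *Ifnar1* KO mice. It lay above WT in every knockout mouse, by 0.67 in *Tlr7* KO (exact permutation p = 0.0357, adjusted p = 0.367) and 1.09 in *Ifnar1* KO mice (p = 0.1, the smallest possible, adjusted p = 0.4), or 0.59 without *Ifnar1* KO 3. With the second deposited count table, *Bcl11a* overlapped WT in both knockouts and *Blk* still did not in *Tlr7* KO mice. *Tlr7* KO 3 and *Ifnar1* KO 3, the mice with the least *Cd79a*, had the highest value of both genes within their group. All 7 pairs that did not overlap between WT and *Tlr7* KO mice had *Blk* or *Bcl11a* in them.

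*Fcer2a* varied most among the *Tlr7* KO mice. It was at 22%, 23.8% and 23.7% of *Cd79a* in WT mice, at 20.8%, 28.2%, 6.09%, 41.4% and 18.4% in *Tlr7* KO mice and at 16.1%, 15.7% and 4.76% in *Ifnar1* KO mice. The *Ifnar1* KO mice lay below WT by 1.12 on the log2 scale (exact permutation p = 0.1, the smallest possible, adjusted p = 0.4), while the *Tlr7* KO mice fell on both sides of it. *Ifnar1* KO 3, with 1 count of *Fcer2a*, set much of this, since without it the difference was -0.54.

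**Figure D3:**
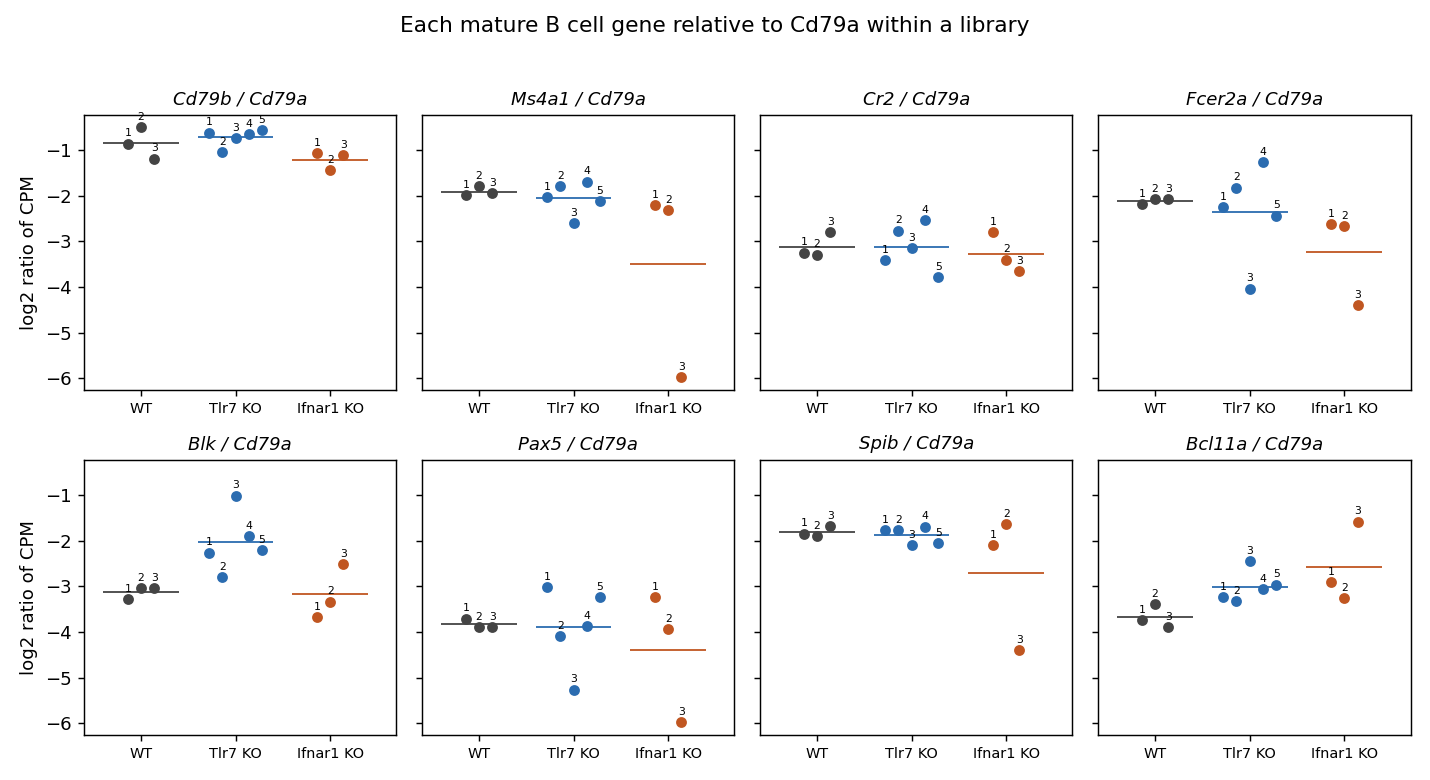
Log2 ratio of CPM of each of 8 genes to *Cd79a* within each library, with the replicate number above each point and a line at the group mean. *Blk* and *Bcl11a* lie above WT in every *Tlr7* KO mouse, which for *Bcl11a* did not hold with the second count table, and *Ifnar1* KO 3 lies far from the other mice of its group for *Ms4a1*, *Pax5*, *Spib*, *Fcer2a* and *Bcl11a*.

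In all, 2 of the 8 ratios to *Cd79a* did not overlap between WT and *Tlr7* KO mice and 3 of 8 between WT and *Ifnar1* KO mice. For all genes tested, the share whose ratio to *Cd79a* did not overlap was 86.1% and 95.2%, in either direction. Between the knockouts it was 1 of 8 against 1% of all genes. In *Ifnar1* KO 3 the 9 genes together had 64 counts, so ratios there carry a large counting error. The 0 of 31 counts of *Ms4a1* plus *Cd79a* that were *Ms4a1* in this mouse had a 95% Clopper-Pearson interval of 0% to 11.2%, against 18.7% to 21.4% in WT 1. For *Blk* in *Tlr7* KO 3, 28 of 85 counts of *Blk* plus *Cd79a* were *Blk*, or 32.9% with an interval of 23.1% to 44.0%, against 8.34% to 10.4% around 9.35% in WT 1. *Tlr7* KO 3 was the highest of its group. The lowest, *Tlr7* KO 2, was at 12.5% with an interval of 9.58% to 16.0%, which overlapped that of WT 1. *Tlr7* KO 1, 4 and 5 were at 17.1%, 20.8% and 17.6%, with intervals above that of WT 1. WT 2 and WT 3 were both at 10.8%, with intervals of 8.56% to 13.4% and 9.76% to 11.9%. The intervals of *Tlr7* KO 1, from 12.1%, and *Tlr7* KO 5, from 10.9%, overlapped that of WT 2. That of *Tlr7* KO 5 also overlapped WT 3. These intervals cover counting error only.

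The 9 genes were also set against *Ptprc*, the leukocyte gene CD45, and *Cd3e*, a T cell receptor subunit, which were themselves lower in the knockouts. *Ptprc* was at 65.7, 19.0 and 56.9 CPM in WT mice, at 9.04, 19.6, 5.12, 6.98 and 6.97 CPM in *Tlr7* KO mice and at 3.86, 8.56 and 1.46 CPM in *Ifnar1* KO mice. *Cd3e* was at 6.17, 1.96 and 6.01 CPM in WT mice, at 0.957, 2.64, 0.645, 1.24 and 0.944 CPM in *Tlr7* KO mice and at 0.478, 1.35 and 0.0836 CPM in *Ifnar1* KO mice. For both reference genes *Tlr7* KO 2 reached or passed WT 2, unlike for the 9 B cell genes.

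*Cd79a* was at 143%, 135% and 145% of *Ptprc* in WT mice, a narrow range that included WT 2. It was at 70.0%, 84.8%, 42.4%, 56.3% and 67.0% in *Tlr7* KO mice and at 95.6%, 90.0% and 88.7% in *Ifnar1* KO mice. *Tlr7* KO mice lay below WT by 1.17 on the log2 scale (exact permutation p = 0.0179, the smallest possible, adjusted p = 0.0292 over 18 ratios), *Ifnar1* KO mice lay below WT by 0.62 (p = 0.1, adjusted p = 0.138), and *Tlr7* KO mice lay below *Ifnar1* KO mice by 0.55 (p = 0.0536, adjusted p = 0.386). Relative to *Ptprc*, 8 of 9 genes were lower in *Tlr7* KO than in WT mice with no overlap, against 0.323% of all genes, 6 of 9 were lower in *Ifnar1* KO mice, against 0.366%, and 2 of 9, *Cd79a* and *Bcl11a*, were lower in *Tlr7* KO than in *Ifnar1* KO mice, against 1.97%. *Blk* was the exception in *Tlr7* KO mice. It was at 14.7%, 16.5% and 17.6% of *Ptprc* in WT mice and at 14.6%, 12.2%, 21%, 15% and 14.6% in *Tlr7* KO mice, and these overlapped (exact permutation p = 0.643). In *Ifnar1* KO mice it was at 7.49%, 8.93% and 15.5%.

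Relative to *Cd3e*, *Ms4a1* was at 380%, 373% and 354% in WT mice, at 159%, 180%, 54.3%, 96.7% and 111% in *Tlr7* KO mice and at 162%, 114% and 20% in *Ifnar1* KO mice. All 8 knockout mice lay well below the WT mice. Over the 9 genes, 8 were lower relative to *Cd3e* in *Tlr7* KO mice with no overlap (all genes 0.588%), 7 in *Ifnar1* KO mice (0.445%) and 0 between the knockouts (1.19%). Of the 18 ratios to both genes, 11 had an adjusted p under 0.05 in the *Tlr7* KO comparison, 5 to *Ptprc* and 6 to *Cd3e*, and none in the other comparisons. In the *Ifnar1* KO comparison with WT the group sizes did not allow a call. The exceptions there were *Blk* and *Bcl11a* for both reference genes and *Pax5* for *Ptprc*, which overlapped WT. *Blk* differed by -0.68 relative to *Ptprc* and -0.83 relative to *Cd3e* on the log2 scale, the latter -1.48 without *Ifnar1* KO 3. *Pax5* differed by -1.17 relative to *Ptprc*, but by -0.36 without *Ifnar1* KO 3, which had 0 counts of *Pax5*, and by -1.78 without *Ifnar1* KO 1. *Bcl11a* had estimates of 0.47 relative to *Ptprc* and 0.32 relative to *Cd3e* (exact permutation p = 0.7 and 0.9), the latter -0.13 with the second table. Without *Ifnar1* KO 3 these were -0.01 and -0.50. *Bcl11a* was at 10.7%, 12.9% and 9.72% of *Ptprc* in WT mice and at 12.8%, 9.37% and 29.6% in *Ifnar1* KO mice, of which only the last lay above WT. Its ratio to *Cd3e* was at 100%, 58.9% and 420% in the *Ifnar1* KO mice and at 113%, 124% and 91.8% in WT mice, the 420% being *Ifnar1* KO 3 with 2 counts of *Cd3e*.

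**Figure D4:**
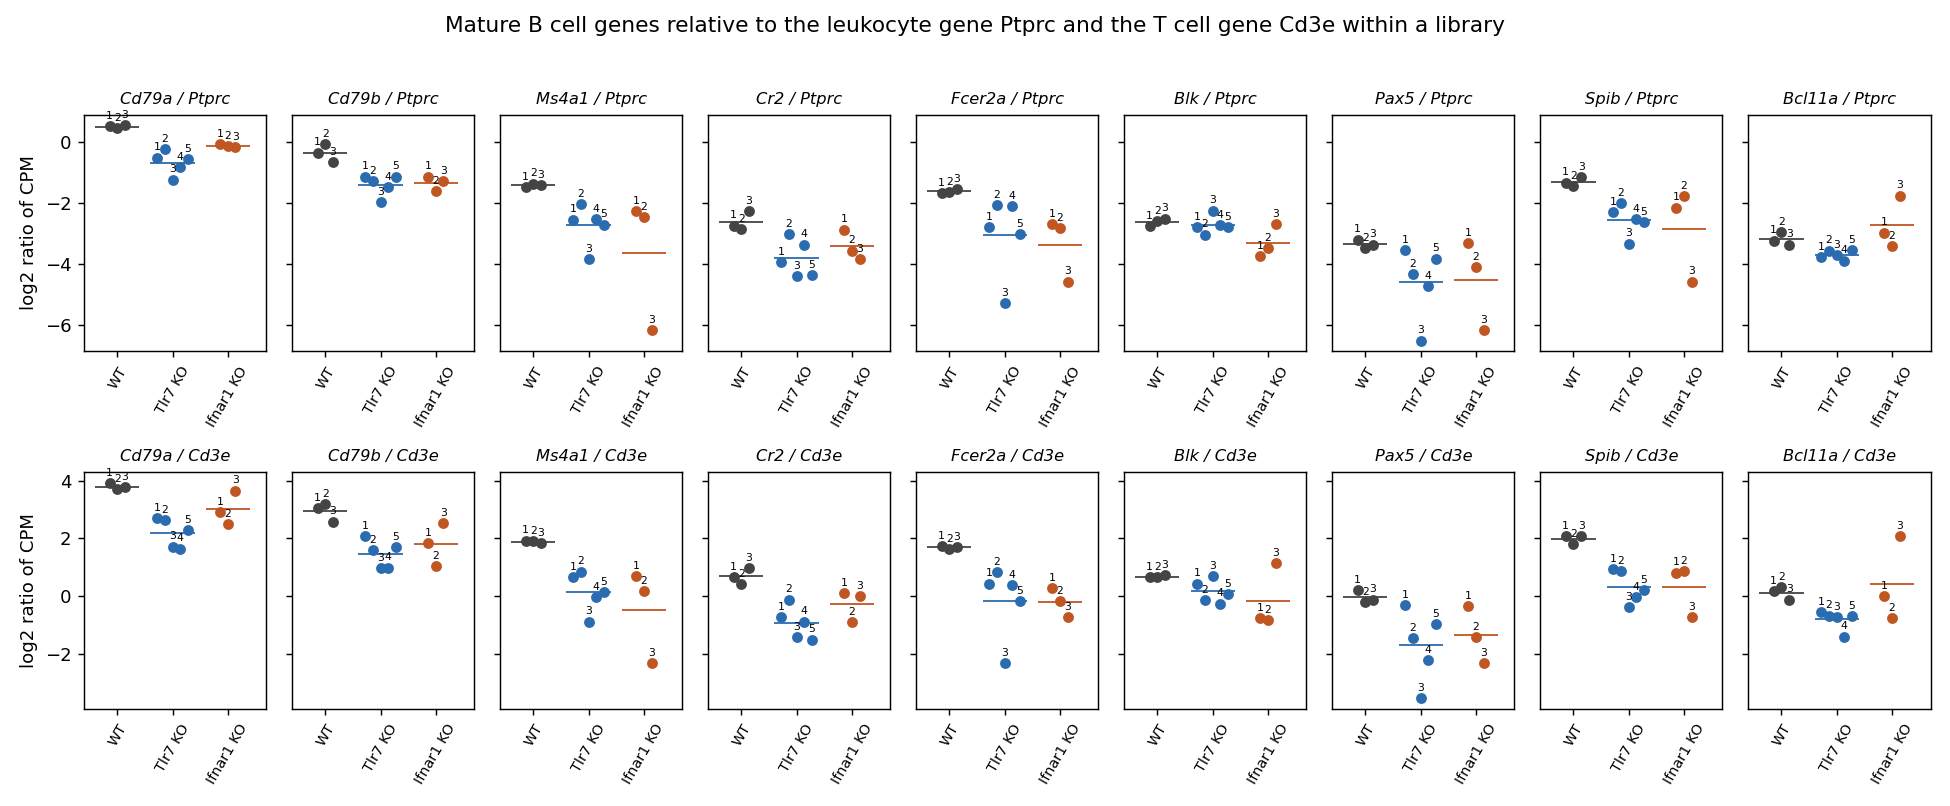
Log2 ratio of CPM of each mature B cell gene to *Ptprc* (top) and to *Cd3e* (bottom) within each library, with the replicate number above each point and a line at the group mean. The *Tlr7* KO mice lie below the 3 WT mice without overlap in 8 of 9 panels of each row, and the WT mice spread most for *Cd79b* and *Cr2*.

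Other genes of the receptor and its pathway were taken from lists written from general knowledge. *Ighm*, the heavy chain of the receptor of naive B cells, was at 332, 222 and 300 CPM in WT mice, at 51.2, 60.9, 24.0, 44.7 and 30.8 CPM in *Tlr7* KO mice and at 28.1, 85.3 and 2.67 CPM in *Ifnar1* KO mice. It was lower in *Tlr7* KO mice (-2.75 ± 0.28, adjusted p = 0.00064) and had an estimate of -2.92 ± 0.97 in *Ifnar1* KO mice (adjusted p = 0.0713), where the mice differed most. *Ighd* was not among the genes of the table used. Plasma cells transcribe *Ighm* too.

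All 11 co-receptor and surface genes were lower in *Tlr7* KO mice (median log2 fold change -3.34) and all 11 in *Ifnar1* KO mice (-4.37). *Cd22*, an inhibitory lectin, changed by -3.34 ± 0.54 and -4.33 ± 0.69 on the log2 scale in *Tlr7* KO and *Ifnar1* KO mice, *Cxcr5*, the receptor that guides B cells to follicles, by -3.64 ± 0.63 and -4.52 ± 0.72, and *Tnfrsf13c*, the BAFF receptor, by -3.76 ± 0.71 and -4.41 ± 0.84. *Cd40* changed least, by -1.69 ± 0.44 (adjusted p = 0.0177) and -2.91 ± 0.72 (adjusted p = 0.0343).

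All 10 receptor signalling genes were lower in *Tlr7* KO mice (median -1.95) and 9 of 10 in *Ifnar1* KO mice (-2.44). *Bank1*, a scaffold largely restricted to B cells, changed by -3.42 ± 0.66 and -4.30 ± 0.70, and *Btk*, the kinase downstream of the receptor, by -2.45 ± 0.38 and -3.25 ± 0.65. *Syk* and *Lyn*, kinases that other leukocytes use too, changed by -2.19 ± 0.33 and -1.28 ± 0.20 in *Tlr7* KO and by -2.61 ± 0.44 and -1.35 ± 0.25 in *Ifnar1* KO mice. *Pik3ap1* was the gene that did not pass in *Ifnar1* KO mice (-1.15 ± 0.35, adjusted p = 0.0593).

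All 8 further transcription factor genes of the lineage were lower in *Tlr7* KO mice (median -1.73) and 6 of 8 in *Ifnar1* KO mice (-1.59). *Ebf1*, which opens the B lineage programme, changed by -2.27 ± 0.26 (adjusted p = 0.00095) and -2.33 ± 0.34 (adjusted p = 0.0207), and *Ikzf3*, the gene of Aiolos, by -2.52 ± 0.48 and -3.48 ± 0.68. *Irf8* and *Foxo1* did not pass in *Ifnar1* KO mice (-1.02 ± 0.30, adjusted p = 0.0517, and -0.82 ± 0.25, adjusted p = 0.06). None of the genes of these 3 lists passed between the knockouts. With 1 mouse left out, the *Tlr7* KO counts stayed at 10 to 11, 8 to 10 and 7 to 8, whereas the *Ifnar1* KO counts ranged from 0 to 11, 0 to 10 and 0 to 8. They were 0 without *Ifnar1* KO 1, *Ifnar1* KO 3, WT 1 or WT 3.

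Early B lineage genes, which B cell precursors use, were scarce. Of 7, *Vpreb2*, *Igll1* and *Rag1* were not among the genes of the table used and *Vpreb1*, *Rag2* and *Dntt* fell under the filter, which reads WT counts only. *Vpreb1* and *Dntt* had 6 counts or fewer in every library. *Rag2*, a subunit of the recombinase, was at 0.407, 0.17 and 0.246 CPM in WT mice, at 0.613, 0.52, 0.949, 0.785 and 0.577 CPM in *Tlr7* KO mice and at 0.41, 0.449 and 0.669 CPM in *Ifnar1* KO mice. All knockout mice lay above WT for it with TMM scaling, on 4 to 25 counts, and this was not tested. WT 1 and *Ifnar1* KO 1 both had 12 counts of *Rag2*. The library of WT 1 was the smaller, so scaling by library size alone would put WT 1 above *Ifnar1* KO 1. *Vpreb3*, which mature B cells also transcribe, was at 1.49, 0.767 and 2.19 CPM in WT mice and was lower in *Tlr7* KO mice (-2.0 ± 0.36, adjusted p = 0.00425). In *Ifnar1* KO mice it was at 0.376, 0.374 and 0 CPM (-2.56 ± 0.80, adjusted p = 0.0609).

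**Figure D5:**
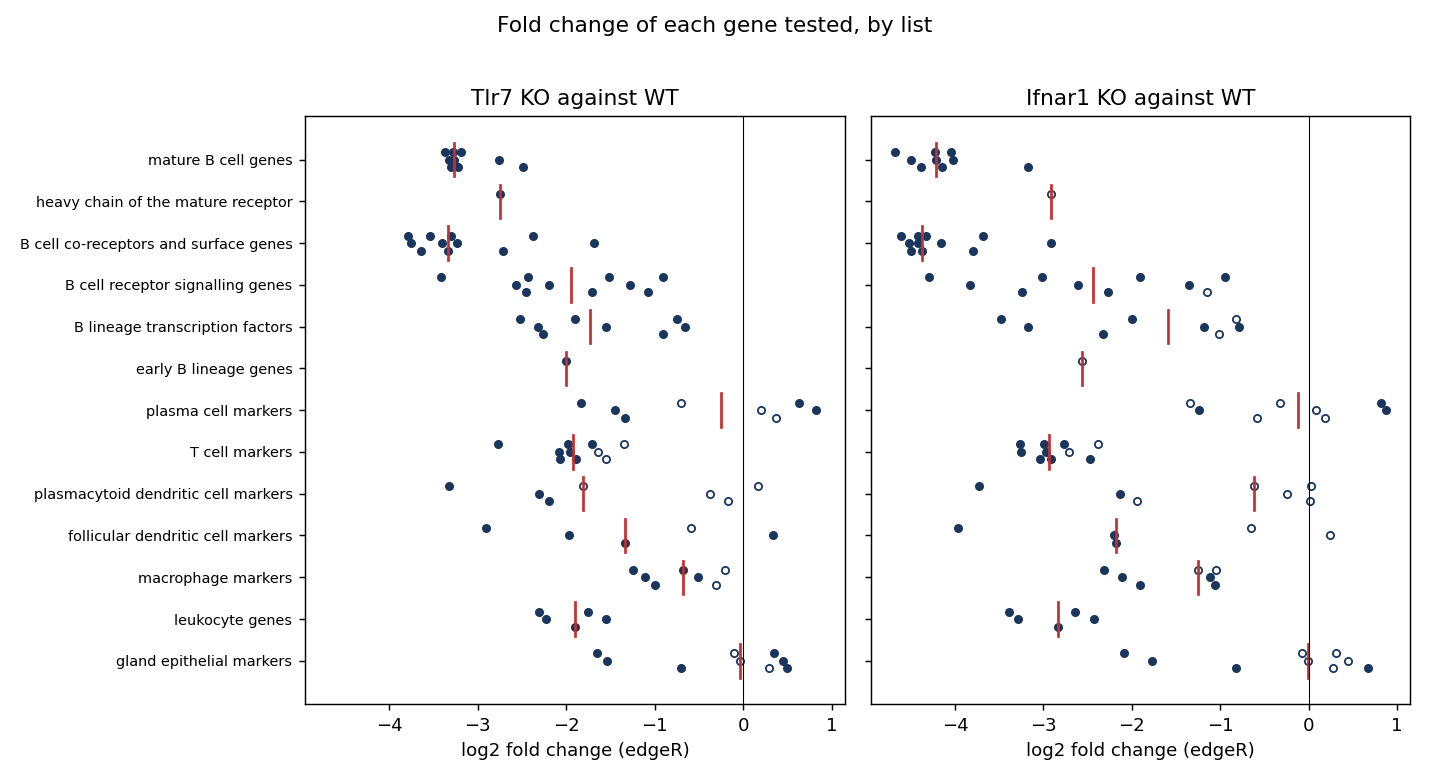
Log2 fold change from edgeR of each gene tested, by list, in *Tlr7* KO (left) and *Ifnar1* KO mice (right) against WT. Filled points have an adjusted p under 0.05, open points do not, and red bars are list medians. The mature B cell genes and the co-receptor and surface genes lie furthest to the left, with medians of -3.27 and -3.34 in *Tlr7* KO and -4.22 and -4.37 in *Ifnar1* KO mice.

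Several of the 9 genes are also transcribed outside B cells, so markers of those cells were measured. *Spib*, *Bcl11a* and *Blk* are active in plasmacytoid dendritic cells. Of 7 markers of that cell, 3 were lower in *Tlr7* KO mice, *Klk1*, *Pacsin1* and *Ly6d*, and 2 in *Ifnar1* KO mice, *Pacsin1* and *Ly6d*, named after their values were seen. Of all genes tested, 17.4% and 12.4% were lower. With 1 mouse left out the numbers of markers lower ranged from 2 to 5, with 5 without WT 2, and from 0 to 4, with 0 without *Ifnar1* KO 1, *Ifnar1* KO 3, WT 1 or WT 3 and 4 without WT 2. *Klk1* overlapped between groups, at 0.128 to 6.62 CPM in WT, 0.0826 to 0.563 CPM in *Tlr7* KO and 0.0418 to 8.48 CPM in *Ifnar1* KO mice. Summed, the 7 were at 17.6 to 35.3 CPM in WT, 15.4 to 20.4 CPM in *Tlr7* KO and 14.7 to 24.3 CPM in *Ifnar1* KO mice. *Siglech*, the defining marker, was at 3.09, 0.383 and 3.12 CPM in WT mice, at 0.248 to 1.17 CPM in *Tlr7* KO mice and at 0.293 to 0.748 CPM in *Ifnar1* KO mice (-1.81 ± 0.64, adjusted p = 0.0555, and -1.94 ± 0.74, adjusted p = 0.1), with WT 2 inside the range of both knockouts. *Tcf4* and *Runx2*, the most abundant of the list, had log2 fold changes of -0.38 and 0.17 in *Tlr7* KO and -0.25 and 0.03 in *Ifnar1* KO mice, none past the test.

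*Cr2* and *Fcer2a* are also made by follicular dendritic cells. Of 7 markers of that cell, *Madcam1* was not among the genes of the table used, *Coch* was at 3 counts or fewer in every library and 5 were tested. *Cxcl13*, *Fcgr2b* and *Enpp2* were lower in both knockouts. With 1 mouse left out, 2 to 4 of the markers were lower in *Tlr7* KO mice, with 2 without WT 1 or WT 3, while in *Ifnar1* KO mice 0 were without WT 1, *Ifnar1* KO 1 or *Ifnar1* KO 3, and 2 without WT 3. *Mfge8* was higher in *Tlr7* KO mice (0.34 ± 0.11, adjusted p = 0.0459), though not when libraries were scaled by size only or when any mouse but WT 2 was left out. *Cxcl13*, the B cell chemokine, was at 47.2, 22.8 and 31.4 CPM in WT mice, at 2.93 to 8.37 CPM in *Tlr7* KO mice and at 0.836 to 3.48 CPM in *Ifnar1* KO mice. Summed, the markers were at 205 to 242 CPM in WT, 170 to 197 CPM in *Tlr7* KO and 165 to 190 CPM in *Ifnar1* KO mice, a sum led by *Mfge8* and *Clu*, which gland cells also transcribe. The part of either dendritic cell in the levels of these 5 genes was not tested.

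T cell markers were also lower. Of 10, 7 were lower in *Tlr7* KO (median -1.92) and 8 in *Ifnar1* KO mice (-2.94), and their sum was 28.4 to 89.5 CPM in WT, 6.45 to 34.6 CPM in *Tlr7* KO and 1.59 to 16.9 CPM in *Ifnar1* KO mice, so that *Tlr7* KO 2 overlapped WT 2. With 1 mouse left out, 3 to 10 were lower in *Tlr7* KO mice, with 3 without WT 1 or WT 3, and 0 to 10 in *Ifnar1* KO mice, with 0 without *Ifnar1* KO 1, *Ifnar1* KO 3, WT 1 or WT 3. *Cd4* changed by -1.95 ± 0.44 and -3.04 ± 0.70 and *Lck*, the proximal kinase of the T cell receptor, by -2.07 ± 0.56 and -2.99 ± 0.76. All 5 general leukocyte genes were lower in both knockouts (medians -1.90 and -2.84), and 5 of 7 macrophage markers were (-0.68 and -1.26), with *C1qa*, a complement gene of tissue macrophages, at -1.25 ± 0.18 and -2.32 ± 0.33. Leaving out any of the same 4 mice took both counts to 0 in *Ifnar1* KO mice. In *Tlr7* KO mice the leukocyte count stayed at 5, and the macrophage count ranged from 3, without WT 1 or WT 3, to 7, without WT 2.

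Plasma cell markers, the genes of the next stage of the lineage, did not move in a single direction as a list. Of 8, 3 were lower and 2 higher in *Tlr7* KO mice and 1 lower and 2 higher in *Ifnar1* KO mice, with medians of -0.25 and -0.12, and their sums were 734 to 913 CPM in WT, 690 to 757 CPM in *Tlr7* KO and 714 to 881 CPM in *Ifnar1* KO mice. *Jchain*, which joins polymeric IgA and IgM, was lower in *Tlr7* KO mice (-1.33 ± 0.15, adjusted p = 0.00095) and had an estimate of -0.32 ± 0.25 in *Ifnar1* KO mice (adjusted p = 0.38). It was the gene of these lists that was called between the knockouts (-1.02 ± 0.21, adjusted p = 0.0397). The list kept 1 call without *Ifnar1* KO 1 or *Ifnar1* KO 2, and 0 plasma cell markers were called without *Ifnar1* KO 3 or any 1 of the 5 *Tlr7* KO mice. *Xbp1*, a secretory factor that gland cells share, had changes of 0.20 ± 0.13 and 0.08 ± 0.21, neither past the test. It led the sums, at 309 to 455 CPM in WT and 405 to 471 CPM in *Tlr7* KO mice. *Jchain*, next in WT mice, was at 274 to 342 CPM there and at 88.5 to 145 CPM in *Tlr7* KO mice. The sums and medians of this list therefore do not measure plasma cells alone. Gland epithelial markers had medians of -0.04 and -0.0047, with 3 of 9 lower in each and 3 and 1 higher. With libraries scaled by size only, 0 plasma cell and 0 epithelial markers were higher. Both lists had 0 calls in *Ifnar1* KO mice without *Ifnar1* KO 1, *Ifnar1* KO 3, WT 1 or WT 3, and in *Tlr7* KO mice 2 to 4 plasma cell and 2 to 3 epithelial markers were lower with 1 mouse left out. *Bhlha15*, the acinar secretory factor, was higher by 0.49 ± 0.11 (adjusted p = 0.00839) and 0.67 ± 0.19 (adjusted p = 0.0499) with TMM scaling.

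Across all 11 libraries, the genes most like the 9 were found by the Pearson correlation of log2 CPM with the mean standardized level of the 9. The 10 closest other genes were *Cd22* (r = 0.998), *Cytip*, *Ptprcap*, *Scimp*, *Fcrl1*, *Snn*, *Chst3*, *Nxpe3*, *H2-Ob* and *Hvcn1* (r = 0.991). The 9 genes, which form the mean, had r from 0.996 (*Cd79a*) down to 0.963 (*Bcl11a*) and 0.948 (*Blk*), and ranked from 2 to 364 of the 13937. Since the libraries share the split between WT and knockout mice, 902 genes had r over 0.9, so these values describe the pattern and carry no test.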

How the data were processed

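Whole lacrimal gland RNA of 11 male NOD mice was sequenced on an Illumina HiSeq 4000, with 1 library per sample. The authors quantified reads with salmon 0.9.1 in bcbio 1.0.8 (Ensembl release 97) and summed transcripts to genes with tximport, and the deposited main table holds these estimated counts, rounded to whole numbers, for 19058 genes. Reads shared by transcripts are split by the model. The table is named as normalized, but its median-of-ratios size factors ran from 0.742 to 1.42, so its values were treated as counts. Another deposited table of raw counts for 39017 genes served as an alternative, and the submitters' processing notes name HISAT2 2.1.0 and mm10, the tool that counted it not being given in the sources used here. Columns were matched to samples by title, and 1 further *Ifnar1* KO column had no sample and was not used. No row lacked a gene ID.

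Depth, 20512315 to 28814250 counts per library, puts 3 counts at 0.082 to 0.157 CPM. Groups follow the genotype in the sample titles. Genes whose counts in the WT mice added up to 30 or more were tested with edgeR 4.0.16 (R 4.3.3, TMM, quasi-likelihood test), each pair of groups in its own fit, with Benjamini-Hochberg adjustment over all genes tested and a threshold of 0.05. Log2 fold changes carry their SE. Fits were tested on simulated data, and the outcome is not reported here. Alternatives were DESeq2 1.42.0, RLE or library-size scaling, other filters, a joint fit, a replicate block, the second table, a threshold of 0.01 and each mouse left out. Ratios used a prior count of 0.5 (alternative 2) and were tested with a two-sided exact permutation test in scipy 1.17.1. Annotation is GENCODE M21, and promoter windows are RefSeq's.

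The 9 genes and all lists were chosen with earlier results of these data known. Genes named are the 9, the knocked-out genes, *Ptprc*, *Cd3e*, the B cell lists, the 2 most abundant genes in WT of each other list and the 10 genes most like the 9. *Cxcl13*, *Siglech*, *Klk1*, *Pacsin1*, *Ly6d*, *Fcgr2b*, *Enpp2*, *Coch* and *Madcam1* were named outside this rule after their values were seen. No libraries held identical values, and replicate counts differed beyond sampling noise in all 16 pairs. The study names 1 gland per mouse for WT and *Tlr7* KO. For *Ifnar1* KO, where this is not stated in the sources used here, p-values measure the spread between samples. No batch is labelled. One gene of the lists is counted but not reported here by name.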

Additional observations from a re-analysis of the deposited data

Results flagged for a closer look

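One value stood apart from its group. The log2 ratio of *Bcl11a* to *Cd3e* was -1.41 in *Tlr7* KO 4, where the other 4 *Tlr7* KO mice lay between -0.74 and -0.54, so that the gap to the nearest mouse was 0.776 of the whole range against a limit of 0.71 for 5 samples. *Bcl11a* had 11 counts in this library. Chance marks about 1 in 20 such groups, and 35 were examined.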

How the results depend on the processing

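All 9 genes stayed lower than WT in both knockouts under every alternative run (log2 fold change -4.17 to -2.19 in *Tlr7* KO, adjusted p = 1.74e-07 to 0.19; -5.56 to -2.85 in *Ifnar1* KO, adjusted p = 5.49e-15 to 0.122). For *Tlr7* KO, 9 of 9 passed under each except the replicate block, which gave 0. The log2 fold changes with the block were -3.39 to -2.19 (adjusted p = 0.12 to 0.19, edgeR). The share of all genes called with the block is not given here for any comparison, so these counts cannot be set against it. For *Ifnar1* KO, 0 of 9 passed at an adjusted p under 0.01 and 0 with the replicate block, 0 to 9 with 1 mouse left out and 9 otherwise. The smallest adjusted p of all 13937 genes in the main fit of that comparison was 0.00789 (edgeR), so the 0 at 0.01 does not single out the 9 genes. Between the knockouts, DESeq2 called 1, the replicate block 4 (*Cd79a*, *Cd79b*, *Fcer2a* and *Blk*) and leaving out a mouse 0 to 1. With 1 mouse left out, *Bcl11a* ranged from -0.12 (adjusted p = 0.91), a change of sign, without *Tlr7* KO 2 to 0.72 without *Ifnar1* KO 2, and its highest value was 1.04, with the second table. The labels give the replicate numbers no shared origin. Deviations of same-numbered mice correlated at -0.4 to 0.03 for WT and *Tlr7* KO and -0.44 to -0.159 for WT and *Ifnar1* KO. Between the knockouts all 3 were positive, at 0.0645 to 0.34, with 1 below the 0.1 required to treat the numbers as pairs. With library sizes as the only scaling, the median of all genes went to -0.54, -0.31 and -0.19, and that of the 9 genes to -3.88, -4.63 and 0.75. The share of all *Tlr7* KO calls that were lower then rose, with 4275 lower and 123 higher against 2429 and 2135, and *Ifnar1* KO calls went from 1735 and 942 to 1288 and 51. Plasma cell and epithelial markers then had 0 higher in each knockout.

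Ratios to *Cd79a* without overlap were 1 in *Tlr7* KO with the second table, and 2 with each mouse left out. For *Ifnar1* KO, 3 to 5 did not overlap with 1 mouse left out. Between the knockouts there were 0 with a prior count of 2, 0 with the second table, and 1 to 3 with a mouse left out. Ratios to *Ptprc* and *Cd3e* between the knockouts numbered 1 with the second table and 2 to 5 with a mouse left out. The cause of these shifts was not tested. Depth limits the lowest mice, since *Tlr7* KO 3 and *Ifnar1* KO 3 held 161 and 64 counts over the 9 genes.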
